A study of Mus musculus with 2 samples.

Results

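The T and NK cell-like cells described here were 276 barcodes out of 15480 (1.78%, exact 95% interval 1.58 to 2.00) in a single-cell RNA sequencing data set of intestinal dendritic cells (DCs). They were chosen by a gate on raw UMI counts, a UMI (unique molecular identifier) standing for 1 captured RNA molecule. A barcode with a single hashtag, at least 500 genes and at most 10% mitochondrial UMIs was selected when Cd3e, Cd3d, Cd3g, Ncr1, Klrb1c and Il2rb summed to at least 4 UMIs, Prdm16 had at most 1 and C1qa, C1qb and C1qc together fewer than 10. The first 6 genes are called the gate genes below. The other 15204 barcodes that passed the same filters served as the comparison.

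The cells had been sorted as CD3-B220-CD11c+MHC-II+ DCs from mesenteric lymph nodes (mLN) and small-intestinal lamina propria (siLP) of untreated 15-day-old mice of the genotype Gm38411-iCre-hCD2, a reporter of the gene Gm38411 with the recombinase iCre and human CD2. The labels name no wild-type or treated group, so every cell came from this genotype and age. There were 3 biological replicates per tissue and each carried 1 of 6 hashtag antibodies (hashtags 2, 4, 5, 6, 8 and 9). The labels do not say which hashtag marked which tissue, nor whether a replicate was 1 mouse or several, so hashtags were not grouped by tissue and the tissues were not compared.

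T cells read antigen through a receptor whose variable chains are held at the membrane by the CD3 subunits, which signal through the kinases Lck and Zap70. CD4 T cells respond to peptide on MHC class II and CD8 T cells to peptide on MHC class I, the class II molecules being carried by DCs. Natural killer (NK) cells and the related innate lymphoid cells lack that receptor and use germline-encoded receptors such as NKp46, the product of Ncr1, and NK1.1, the product of Klrb1c. In the young gut, T cells that meet food antigen on DCs can become regulatory T cells. The sort removed cells with CD3 protein on the surface, whereas the gate was set on RNA.

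Members were found in 5 of the 6 hashtags. Hashtag 5 held 152 of its 1873 barcodes as members (8.12%, exact 95% interval 6.92 to 9.45), hashtag 4 held 72 of 1619 (4.45%, 3.496 to 5.57) and hashtag 2 held 37 of 1485 (2.49%, 1.76 to 3.42). Hashtags 6 and 9 held 6 of 3091 (0.194%, 0.0713 to 0.422) and 9 of 4865 (0.185%, 0.0846 to 0.351). Hashtag 8 held 0 of 2547, which allows a share of up to 0.118% by the limit of 3 counts that a count of 0 leaves. Hashtags 2, 4 and 5 thus gave 261 of the 276 members (94.6%), and their intervals overlap neither each other nor those of the other 3 hashtags. Those intervals cover counting error only.

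**Figure D1:**
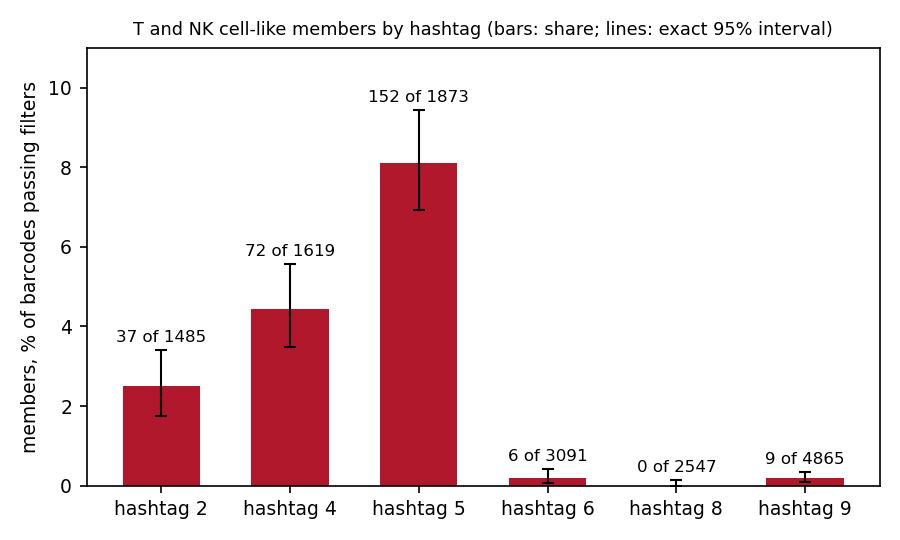
Share of barcodes passing the filters that were T and NK cell-like members (y axis, percent) in each of the 6 hashtags (x axis); bars are shares, lines exact 95% intervals, and the counts written over the bars are members and barcodes. Hashtags 2, 4 and 5 lie between 2.49% and 8.12%, and hashtags 6, 8 and 9 at or below 0.194%.

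The 2 sets of hashtags also differed in depth. The other barcodes had medians of 6151 to 6506 UMIs in hashtags 2, 4 and 5, and of 12000 to 12955 in hashtags 6, 8 and 9. Members had medians of 7126, 7220 and 7478 UMIs in hashtags 2, 4 and 5, a little above their neighbours. The gate is a fixed number of UMIs, so fewer barcodes reach it at low depth. With each barcode thinned to 2000 UMIs the shares were 1.21% in hashtag 2, 1.56% in hashtag 4 and 3.34% in hashtag 5, against 0.0336%, 0 and 0.0425% in hashtags 6, 8 and 9. The order of the sets was the same, at lower levels. Mitochondrial RNA had medians of 2.33%, 2.13% and 2.24% of UMIs in members of hashtags 2, 4 and 5, and of 3.82%, 3.74% and 3.51% in their other barcodes.

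Members carried a median of 11 UMIs of the gate genes (range 4 to 36), and 241 of the 276 carried at least 6. Among the other barcodes, 97.4% had none and only 24 had 3. Barcodes of at most 100 UMIs, taken as a measure of free RNA, had the gate genes at 20.6 CPM (counts per 1000000 UMIs), against 3.07 CPM in the other barcodes and 1312 CPM in members. Just below the gate, 16 of 24 barcodes with 3 gate UMIs (66.7%) also had a UMI of a T cell receptor constant gene (Trac, Trbc1 or Trbc2), as did 25 of 48 with 2 (52.1%) and 32 of 320 with 1 (10%). Just inside, 18 of 20 barcodes with 4 gate UMIs (90.0%) and 14 of 15 with 5 (93.3%) had one, and above that 236 of 241 (97.9%). Some barcodes with receptor RNA therefore lie outside the gate. The MHC class II share, which is the part of a barcode's UMIs from Cd74, H2-Aa, H2-Ab1 and H2-Eb1, went across the same steps from a median of 1.80% with 1 gate UMI to 0.432% with 3, 0.2999% with 4 and 0.2201% with 6 or more. Hashtags 2, 4 and 5 gave 149 of 320 barcodes with 1 gate UMI. They gave 20 of 24 with 3 and 230 of 241 with 6 or more. The other barcodes had class II medians of 1.11% to 1.19% in these hashtags and 2.85% to 2.94% in hashtags 6, 8 and 9. The part of this change of hashtags in the decline was not tested. The gate also held back 6 barcodes, 5 for their Prdm16 UMIs and 1 for its C1q UMIs.

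**Figure D2:**
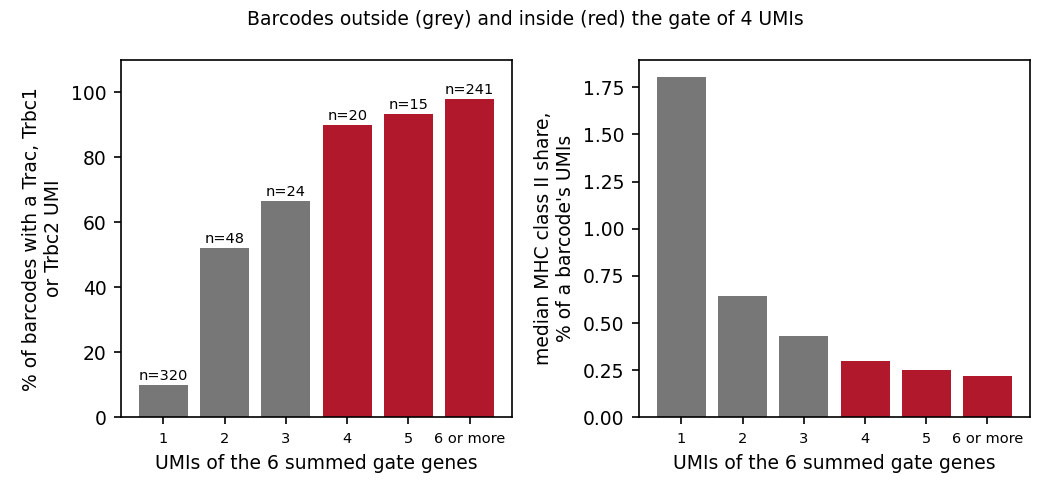
Left, share of barcodes with a UMI of Trac, Trbc1 or Trbc2 (y axis, percent); right, median share of a barcode's UMIs from 4 MHC class II genes (y axis, percent); both by the number of UMIs of the 6 gate genes (x axis), grey outside and red inside the gate. Receptor RNA goes from 10% to 97.9% of barcodes while the class II share goes from 1.80% to 0.2201%. The mix of hashtags also changes along the x axis.

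The genes that chose the members are given as levels only. They are in CPM of the UMIs summed over all members, or all other barcodes, of a hashtag. In such sums, fewer expressing cells and less RNA per cell cannot be told apart. Cd3e stood at 333, 364 and 323 CPM in members of hashtags 2, 4 and 5, and at 2.03, 1.498 and 2.00 CPM in the other barcodes. Cd3d stood at 434, 373 and 385 CPM against 2.21, 2.25 and 2.00. Cd3g stood at 464, 490.1 and 483 CPM against 1.94, 1.33 and 3.14. The NK receptor genes were far lower over the members as a whole: Ncr1 at 26.8, 68.3 and 39.4 CPM, and Klrb1c at 41.6, 21.0 and 25.7 CPM. Il2rb, the beta chain shared by the receptors of interleukin-2 and interleukin-15, stood at 77.3, 59.5 and 73.4 CPM. CD3 RNA thus made up most of what the gate caught, and 254 of 276 members (92.0%) had at least 1 CD3 UMI.

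The 3 CD3 genes lie together on chromosome 9, in mm10 coordinates of the GENCODE M21 annotation: Cd3g at chr9:44969572-44980431 on the minus strand, Cd3d at chr9:44981786-44987339 on the plus strand and Cd3e at chr9:44998740-45009627 on the minus strand. Cd3g and Cd3d face away from each other, with 1355 bases between their starts. The other gate genes lie elsewhere, Ncr1 at chr7:4337724-4345164, Klrb1c at chr6:128778485-128789215 and Il2rb at chr15:78479256-78495271. The CD3 genes were 3 of the genes that chose the members, so their joint level is no finding. As neighbours with shared use in T cells, they are shown by the 250 bases before each start, 5′ to 3′ on the gene's own strand, from RefSeq on GRCm38.p6 (mm10), with capitals marking each E-box (CANNTG, searched on both strands, a palindrome counted once), the motif bound by E proteins such as E2A and HEB. The windows are chr9:45009612-45009861 for Cd3e, chr9:44981536-44981785 for Cd3d and chr9:44980432-44980681 for Cd3g. The RefSeq start of Cd3e lies 16 bases inside the GENCODE gene, so its window overlaps the gene as given above by those bases.
Cd3e: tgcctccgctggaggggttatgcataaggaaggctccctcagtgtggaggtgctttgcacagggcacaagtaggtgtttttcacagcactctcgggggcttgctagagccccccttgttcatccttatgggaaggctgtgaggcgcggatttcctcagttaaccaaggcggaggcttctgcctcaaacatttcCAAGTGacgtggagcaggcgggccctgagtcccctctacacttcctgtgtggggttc
Cd3d: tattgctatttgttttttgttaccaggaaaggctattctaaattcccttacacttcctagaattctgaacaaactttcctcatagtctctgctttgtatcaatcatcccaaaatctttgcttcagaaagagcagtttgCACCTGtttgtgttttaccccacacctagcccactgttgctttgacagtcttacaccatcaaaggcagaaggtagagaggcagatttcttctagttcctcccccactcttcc
Cd3g: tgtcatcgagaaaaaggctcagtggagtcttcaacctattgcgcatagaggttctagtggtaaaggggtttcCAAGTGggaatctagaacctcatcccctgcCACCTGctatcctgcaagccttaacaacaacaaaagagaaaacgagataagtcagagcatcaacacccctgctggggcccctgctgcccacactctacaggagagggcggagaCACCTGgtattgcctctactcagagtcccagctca
The windows held 1 E-box in Cd3e, 1 in Cd3d and 3 in Cd3g. Of 32851 promoter windows of this length, 66.2% held at least 1 and 12.2% at least 3. The core CTTTGA of the TCF/LEF factors, on either strand, was found 2 times in Cd3d and not in the windows of the other two, and 1.37% of all windows held at least 2. The ETS core GGAA, on either strand, was found 5, 6 and 2 times in Cd3e, Cd3d and Cd3g. Of all windows, 93.4% held it, 76.8% at least 2 times and 18.0% at least 5 times. These matches are letters in a window, and no binding was measured.

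For all other genes, UMIs were summed over members and over the other barcodes of each hashtag, which gave 3 pairs (hashtags 2, 4 and 5) with at least 10 cells on each side. The sums of members held 336303, 571343 and 1320854 UMIs, and those of the other barcodes 11337087 to 14012106. The edgeR fit with hashtag as a block tested 13598 genes, left 2 residual degrees of freedom, and called 2231 higher (16.4% of those tested) and 3131 lower (23.0%) in members at an adjusted p below 0.05. Of the genes called, 2085 were higher in every pair and 3074 were lower in every pair. The median log2 fold change of all genes tested was -0.10. A gene expressed in the same cells as a gate gene is not independent of the choice of members, so the counts below describe what the gate caught. Both sums of a pair came from 1 replicate, so the fit measures the spread between 3 replicates.

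The T cell receptor list was higher as a whole: 23 of its 23 tested genes were called higher and none lower, with a median log2 fold change of 6.09. Of the 23, 21 were higher in every hashtag pair. Trac, the constant part of the alpha chain, stood at 354, 324 and 346 CPM in members of hashtags 2, 4 and 5 and at 3.88, 2.41 and 5.07 CPM in their other barcodes (log2 fold change 6.36 ± 0.16 (SE), adjusted p = 4.23e-24). Trbc2, a constant part of the beta chain, stood at 797, 816 and 793 CPM against 3.97, 5.83 and 9.13 (6.87 ± 0.16, adjusted p = 7.03e-25). Members and other barcodes do not overlap for either gene, and the members' values differ little between hashtags. Trbc1, the other beta constant gene, was less even over hashtags, at 491, 406 and 306 CPM (6.76 ± 0.20, adjusted p = 1.13e-22).

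The signalling genes of the receptor were all called higher, by unequal amounts. Cd247, the zeta chain that carries the signal inward, stood at 589, 816 and 631 CPM against 12.8, 8.74 and 16.0 (log2 fold change 5.64). Lck, the kinase that starts the signal, stood at 321, 441 and 330.1 CPM against 3.44, 3.99 and 5.71 (6.22). Zap70, the kinase recruited next, was lower in level, at 59.5, 84.0 and 57.5 CPM against 0.617, 0.583 and 1.499 (6.00). The largest changes of the list belonged to Sh2d1a, which encodes the adaptor SAP (7.33), Themis, needed for thymocyte selection (6.996), and Trbc2. Thy1, the Thy-1 surface protein, rose by 6.11, from 1.59, 0.915 and 1.86 CPM to 113, 96.3 and 120.4. Lcp2 and Ptpn22 were called with the smallest changes, 0.60 and 0.64, since the other barcodes expressed both at 131 CPM or more.

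**Figure D3:**
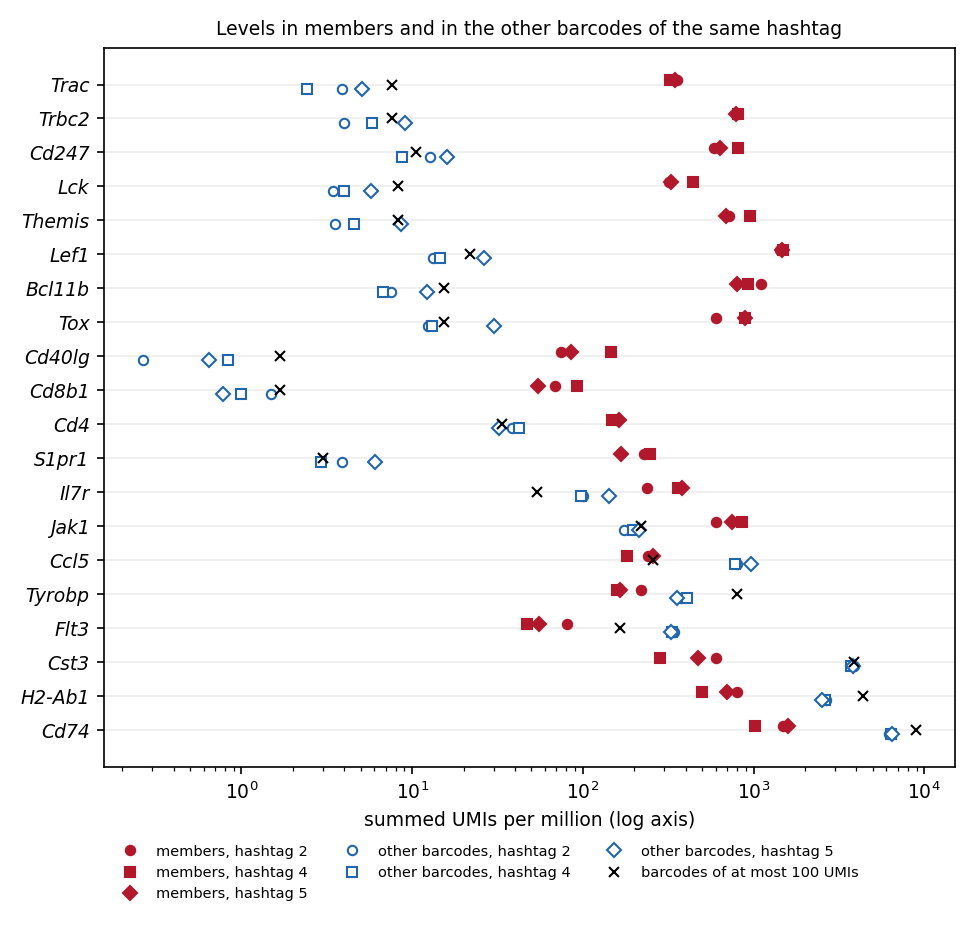
Summed level in CPM (x axis, log scale) of 20 genes (y axis) in members (filled red) and other barcodes (open blue) of hashtags 2, 4 and 5, with barcodes of at most 100 UMIs as crosses. T cell genes such as Trac (324 to 354 CPM in members, 2.41 to 5.07 in the others) lie to the right in members and DC genes such as Cst3 and Cd74 to the left.

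Nearly every member carried rearranging-receptor RNA. A UMI of Trac, Trbc1 or Trbc2 was present in 268 of 276 members (97.1%, exact 95% interval 94.4 to 98.7) and in 574 of 15204 other barcodes (3.78%). After thinning each cell to 2000 UMIs, Trbc2 alone was seen in 69.2% of members and 0.476% of the others, against 89.5% and 1.204% before thinning. Variable gene RNA was sparse in these libraries, which read the 3' end of the transcript: 38 of 128 Trav genes had 108 UMIs in 79 members, and 18 of 35 Trbv genes had 90 UMIs in 72 members. Trbv19, with 13 UMIs in 12 members, and Trav3-3, with 13 UMIs in 11 members, led, so no single variable gene made up most of the UMIs. Trdc, the constant gene of the delta chain, had a UMI in 6 members, each of which also had Trac or Trbc UMIs, and its sums were 8.92, 17.5 and 6.81 CPM against 0, 0.166 and 0.0714.

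In the list of CD4, CD8 and regulatory T cell genes, 10 of 13 tested genes were higher and 1 was lower (median log2 fold change 1.57). Cd4 stood at 158, 149 and 162 CPM in members against 38.2, 42.2 and 32.1 (1.97 ± 0.15, adjusted p = 1.11e-12), so the other barcodes held Cd4 RNA too, close to the 33.6 CPM of barcodes of at most 100 UMIs. Cd8a, which some DCs also express, stood at 62.4, 29.8 and 23.5 CPM against 15.9, 16.9 and 18.1 (0.85 ± 0.28, adjusted p = 0.0158), and it lost its call without hashtag 2, under DESeq2, at 5% mitochondrial UMIs and with an equal number of other barcodes. Cd8b1, the beta chain of CD8, set the groups further apart, at 68.4, 92.8 and 54.5 CPM against 1.4995, 0.999 and 0.785 (5.92). Cd40lg, the ligand by which helper T cells act on CD40, stood at 74.3, 145 and 85.6 CPM against 0.265, 0.832 and 0.642 (7.26), and Izumo1r, of the folate receptor family, rose by 6.21. Foxp3, the factor of regulatory T cells, had 22 UMIs in 11 members (2.97, 17.5 and 8.33 CPM) against 4 UMIs in the other barcodes of these hashtags (6.11 ± 0.81, adjusted p = 1.88e-07). Tnfrsf4, which encodes OX40, fell by 1.56.

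Members were also described by which coreceptor they carried, a split chosen after the data had been seen and given without a test. Cd4 without Cd8b1 was seen in 161 of 276 members (58.3%), Cd8b1 without Cd4 in 24 (8.70%), both in 13 (4.71%) and neither in 78 (28.3%). Of the other barcodes, 17.8% had Cd4 without Cd8b1, so a Cd4 UMI alone does not mark a T cell here. A Cd4 UMI without Cd8b1 was found in 51.4%, 52.8% and 64.5% of the members of hashtags 2, 4 and 5. The median depth was 7478 UMIs in the Cd4 class and 7823 in the Cd8b1 class.

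Of 15340 genes with a UMI in either class, Cd4 and Cd8b1 aside, 300 were higher in the Cd4 class and 360 in the Cd8b1 class with Poisson intervals that did not overlap (1.96% and 2.35%). These intervals cover counting error only. DC RNA differed too: the DC list summed to 965 CPM in the Cd4 class and 408 in the Cd8b1 class, and Cd74 stood at 1620.2 CPM (1555 to 1687) against 571 (473 to 684), whose part in the differences was not tested. The genes below were picked for what they are known to do, after the data had been seen. Cd40lg had 150 UMIs in the 161 cells of the Cd4 class (104 CPM, Poisson 95% interval 88.2 to 122) and none in the 24 of the Cd8b1 class. Zbtb7b, the factor ThPOK of CD4 T cells, had 35 UMIs in the Cd4 class (24.3 CPM, 16.9 to 33.8) and none in the Cd8b1 class, whose interval reaches 17.7 CPM, so these intervals overlap. Nkg7, a protein of cytotoxic granules, had none in the Cd4 class and 44 in the Cd8b1 class (211 CPM, 153 to 284). Runx3, the factor of CD8 T cells, stood at 114 CPM in the Cd4 class and 442 in the Cd8b1 class. Itgae, the integrin alpha E of CD103, stood at 7.64 CPM against 187, and Ccr9, a gut-homing chemokine receptor, at 9.03 against 173. Cd8a stood at 1.39 against 317 CPM. Lef1, at 1556 against 1608 CPM, and Bcl11b, at 869 against 917, had overlapping intervals.

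Transcription factors of lymphocytes were mostly higher, with 15 of 21 tested genes higher, 4 lower and a median log2 fold change of 2.74. Lef1, a TCF/LEF factor of T cell development, stood at 1430.3, 1479 and 1467 CPM against 13.2, 14.6 and 26.5 (6.25). Bcl11b, required for T cell identity, stood at 1109, 924 and 801 CPM against 7.497, 6.74 and 12.3 (6.60). Eomes, a T-box factor of NK cells and CD8 T cells, had 38 UMIs in only 9 members against 2 in the other barcodes (7.63 ± 0.78, adjusted p = 1.06e-09). Gata3, a factor of T cells and innate lymphoid cells, rose by 3.69, at 92.2, 56.0 and 59.1 CPM against 2.73, 4.91 and 6.14. Tbx21, which encodes T-bet, overlapped between the groups, at 17.8, 17.5 and 37.1 CPM against 22.0, 17.7 and 19.5, and was not called (0.34 ± 0.27, adjusted p = 0.354). Zeb2 and Id2, both used by DCs, were called lower (-2.48 and -1.72).

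Cytokine receptors and JAK-STAT genes had 10 of 19 higher and 3 lower (median 0.62). Il7r, the receptor chain for the survival cytokine interleukin-7, stood at 238, 362 and 379 CPM against 100.03, 97.6 and 142 (1.42 ± 0.12, adjusted p = 3.16e-11). Il12rb1, a chain of the interleukin-12 receptor, rose by 3.42 on 7 UMIs, but not with a gate of 6 UMIs. Il18rap, a chain of the interleukin-18 receptor, rose by 2.34, from 6.26, 6.99 and 10.3 CPM to 32.7, 43.8 and 53.0, but not with the Cd3 members alone. Il15ra, which DCs use to present interleukin-15, fell by 3.43, to 14.9, 7.001 and 5.30 CPM.

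Among genes of homing and residence, 7 of 22 were higher and 11 lower (median -0.65). S1pr1, the receptor for leaving lymphoid tissue, stood at 229, 248.5 and 167 CPM against 3.88, 2.91 and 6.07 (5.46). Itga2, the CD49b integrin of NK cells, rose by 5.05 on 37 UMIs in 18 members. Itgae fell by 0.81, with 29.7, 33.3 and 28.8 CPM against 52.7, 51.7 and 46.2, and lost its call with an equal number of other barcodes. Ccr9 was called lower (-1.21 ± 0.25, adjusted p = 1.60e-04), although hashtag 2 had 53.5 CPM in members and 52.0 in the others before scaling, and it lost its call without hashtag 5, with sums of at least 5 cells and with an equal number of other barcodes. Inhibitory and costimulatory receptors had 2 of 10 higher and 3 lower (median -0.54): Cd27, a costimulatory receptor of naive lymphocytes, rose by 3.79, and Havcr2 (-2.12) and Tnfrsf1b (-1.55) were lower.

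NK receptors and adaptors had 11 of 20 higher and 4 lower, with a median of 1.44. Of the 11, 8 were higher in every hashtag pair, and the 4 were lower in every pair. Many of these sums rested on few cells. Klra7, an inhibitory receptor of the Ly49 family, had 15 UMIs in 3 members and none in the other barcodes of hashtags 2, 4 and 5, at least 83.8-fold higher against a floor of 3 UMIs over the group. Klrc1 and Klrc2, receptors of the NKG2 family, had 48 UMIs in 15 members and 36 UMIs in 14 members (7.01 and 6.11). Ly49 genes are near-identical copies between which the counting could have split reads. Tyrobp, the adaptor DAP12 that myeloid cells use as well, stood at 220.0, 159 and 165 CPM against 377, 407 and 357 (-1.21 ± 0.12, adjusted p = 9.75e-10). Slamf7 was lower too (-2.59). The list as a whole was not higher in members. Its sum was 1098 to 1309 CPM in members, 1236 to 1355 in the other barcodes and 1612 in barcodes of at most 100 UMIs.

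Few cytotoxic genes could be tested. Of 8 tested, 3 were higher (Nkg7 by 8.15, Ctsw by 5.76 and Fasl by 3.79, the last not without hashtag 4) and 4 were lower (median -0.18). Nkg7 stood at 124.9, 70.0 and 40.9 CPM against 0.0882, 0.166 and 0.357. The granzymes and perforin had too few UMIs: Gzma had 5 UMIs in 2 members, Gzmb 3 in 3 and Prf1 12 in 10. Effector cytokines had 3 of 9 higher and 3 lower (median -0.00), while 11 others, Ifng, Il4, Il17a and Il22 among them, were not tested and had 10 UMIs in the members of the 3 hashtags. Ifng accounted for 7 of these, in 4 members. Xcl1, the chemokine that draws XCR1+ DCs, stood at 11.9, 24.5 and 31.0 CPM against 1.4995, 0.2497 and 0.285 (5.23), from 12 members, and lost its call with the Cd3 members alone. Tnfsf11, which encodes RANKL, rose by 3.91 on 28 UMIs. Ccl5, a chemokine made by DCs and lymphocytes, was lower, at 241, 180.3 and 256 CPM against 799, 776 and 964 (-2.04 ± 0.11, adjusted p = 3.28e-16).

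**Figure D4:**
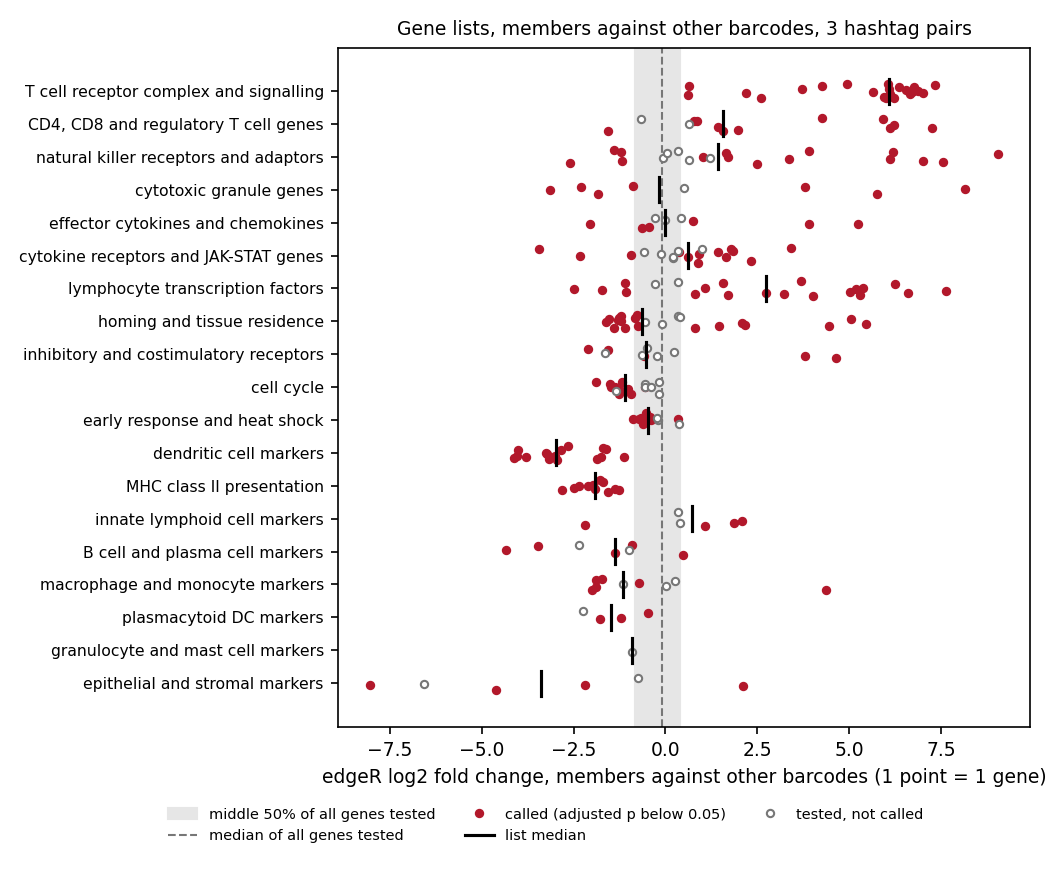
edgeR log2 fold change of members against other barcodes (x axis) for the tested genes of 19 lists (y axis), called genes filled red, others open, list medians as black bars and the middle 50% of all 13598 genes shaded. The T cell receptor list has its median at 6.09 and the DC list at -2.97, against -0.10 for all genes tested.

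Genes of DCs were low in members. All 16 genes of the DC list were called lower (median -2.97), and their summed level was 630.1 to 1100.2 CPM in members, 6420 to 6519 CPM in the other barcodes and 5808 CPM in barcodes of at most 100 UMIs. None of the 16 was at 0 over the members. Clec9a, a receptor of type 1 DCs, fell by 4.05, to 14.9, 5.25 and 11.4 CPM from 162.5, 155 and 156. Flt3, the growth factor receptor of DCs, stood at 80.3, 47.3 and 55.3 CPM against 340.0, 334 and 330.1 (-2.64). Itgax, which encodes the CD11c used for the sort, stood at 47.6, 35.0 and 54.5 CPM against 149, 145 and 123 (-1.63). All 11 MHC class II genes were lower (median -1.93), among them Cd74 at 1496, 1015 and 1599 CPM against 6205, 6378 and 6461 (-2.35) and H2-Ab1 at 799.9, 495 and 697 CPM against 2662, 2603 and 2523 (-2.11).

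The sort was for MHC class II protein, and class II RNA was low but present in members. Over all hashtags, the class II share had a median of 0.226% in members, 2.34% in the other barcodes and 2.51% in barcodes of at most 100 UMIs. In hashtags 2, 4 and 5 the medians were 0.212%, 0.219% and 0.233% in members, against 1.15%, 1.19% and 1.11% in their other barcodes. The class II share lay below the 5th percentile of the other barcodes of the same hashtag in 195 members and at or above it in 81. Those 81 had Flt3 at 126 CPM against 19.3 in the 195, Trbc2 at 457 against 944, and a median depth of 7916 UMIs against 7337. The part of free RNA and of 2 cells in 1 droplet in these values was not tested. With only the members low in class II of hashtags 2, 4 and 5 (27, 58 and 99 cells), 2177 genes were called higher and 3330 lower. Barcodes marked by more than 1 hashtag had been left out, and no further doublet caller was run.

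Markers of other cell types are given over members of hashtags 2, 4 and 5. B220+ cells, such as B cells and plasmacytoid DCs, are cells that the sort would remove. The B cell list had 1 gene higher and 4 lower of 7, with Jchain and Mzb1 among those at 0. Ighm, on the same list, was detected. Over all hashtags it had 199 UMIs in 115 of the 250 members with CD3 UMIs and neither NK receptor gene (92.3 CPM). The macrophage and monocyte list had 1 higher and 5 lower of 9, with Fcgr1 at 0. Its higher gene, Ly6c2, a surface protein, stood at 98.1, 12.3 and 4.54 CPM and is also made by CD8 T cells: the Cd8b1 class held 34 of its UMIs, at 163 CPM, and the Cd4 class 3, at 2.08 CPM. The plasmacytoid DC list had 0 higher and 3 lower of 4, and Siglech was at 0. The epithelial and stromal list had 1 higher, Pecam1, the CD31 protein that T cells also carry (395.5, 397 and 397.5 CPM against 86.0, 86.2 and 80.9), and 3 lower of 6, with Col1a1 at 0. The 1 granulocyte gene tested was not called. The innate lymphoid cell list had 3 higher and 1 lower of 6 (median 0.73), with Cxcr6 2.09, Rora 1.07 and Arg1 1.86 higher and Kit lower (-2.20). The other 7 of its 13 genes were not tested. Its sum was lower in members, at 107 to 185 CPM against 238 to 260 in the other barcodes. Cxcr6 was not called with the Cd3 members alone or with members low in class II, and Arg1 lost its call in these and in 4 other settings, among them without hashtag 4 and without hashtag 5. Summed over their lists, members held 118.9 to 136 CPM of B cell markers against 138 to 178, and 99.2 to 202 CPM of macrophage markers against 256 to 350.2. The epithelial and stromal sum was higher in members, at 398 to 417 CPM against 114 to 147, and most of it was Pecam1.

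Cell cycle genes were low in members, with 10 of 16 lower, none higher and a median of -1.10, but the hashtags differed. Of the 10, 7 were lower in every hashtag pair. Cdk1, the mitotic kinase, stood at 17.8, 3.501 and 2.27 CPM against 25.1, 14.6 and 16.9 (-1.89), and lost its call without hashtag 5 and with an equal number of other barcodes. Mki67 was not called, at 161, 5.25 and 49.97 CPM against 96.2, 65.7 and 72.9, and hashtag 2 was above its other barcodes. Early response and heat shock genes had 9 of 13 lower and 1 higher (median -0.47). Jun, a subunit of AP-1, differed between the hashtags in both groups, at 89.2, 212 and 579 CPM in members and 346, 389 and 649 CPM in the others (-0.89 ± 0.16, adjusted p = 3.69e-05). It lost its call without the hashtag block and with an equal number of other barcodes.

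Outside the lists, the genes with the largest increases were Dapl1 (7.18), Gpr174, a lysophosphatidylserine receptor of lymphocytes (6.81), Sh2d2a, a T cell signalling adaptor (6.72), Sit1, a receptor-associated adaptor (6.70), and Gm39323 (6.56). Dapl1 stood at 143, 205 and 149.9 CPM against 1.76, 0.666 and 0.785. The genes with the largest decreases, Lmo1, Plppr4, Ctrl, Gm48428 and Ccl9, had no UMI in members of the 3 hashtags. Against a floor of 3 UMIs over the group they were at least 7.24-fold, 6.90-fold, 10.04-fold, 6.58-fold and 6.90-fold lower. Ctrl, which encodes a pancreatic protease, was uneven in the other barcodes, at 35.5, 1.66 and 5.85 CPM. Of the added reporter sequences, tdTomato stood at 175.4, 175.03 and 167 CPM in members against 29.5, 38.3 and 53.4 (1.94 ± 0.16, adjusted p = 5.18e-12), hCD2 had 4 UMIs in these members and iCre none. Barcodes of at most 100 UMIs held 129 CPM of tdTomato.

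The members fell into parts by which gate genes they carried. There were 250 with CD3 UMIs and neither NK receptor gene (Cd3 members), 18 with Ncr1 or Klrb1c and no CD3 UMI (NK receptor members), 4 with both and 4 with Il2rb alone. The NK receptor members came as 2, 4, 11 and 1 from hashtags 2, 4, 5 and 6. Only hashtag 5 had at least 5 cells of both parts, so these parts were not tested against each other, and their values are sums over all hashtags with exact Poisson 95% intervals, which cover counting error only. The NK receptor members held 119586 UMIs in all, with a median of 5760 per cell, and the Cd3 members 2156572 with a median of 7399. The example genes below were chosen after their values had been seen.

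In the NK receptor members, beta chain RNA was detected and alpha chain RNA was not. Trac had no UMI in the 18 cells, against 218 of 250 Cd3 members. By the limit of 3 counts this allows up to 16.7% of cells with a UMI at this depth, and it does not limit the cells that express the gene. Trbc1 had UMIs in 13 of 18 cells (209 CPM, 135 to 309) and Trbc2 in 8 (276 CPM, 190 to 388), below the 825 CPM of Trbc2 in Cd3 members. Themis and Bcl11b had 1 UMI each and Cd5, Cd6, Cd4 and Cd40lg none. In the Cd3 members the same genes stood at 800.3 CPM for Themis, 899 for Bcl11b, 265 for Cd5 and 194 for Cd6. Lef1 stood at 201 CPM in the NK receptor members and 1564 in the Cd3 members. Apart from Trbc, T cell genes of this kind were at or near 0 in the NK receptor members.

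The MHC class II list summed to 6581 CPM in NK receptor members and 4692 in Cd3 members, and the DC list to 836 and 880 CPM. The part of DC RNA in the values below was not tested. Several receptor and effector genes stood higher in NK receptor members than in Cd3 members. Il18r1 and Il18rap, the chains of the interleukin-18 receptor, stood at 1162 CPM (977 to 1372) and 661 CPM, against 38.5 and 8.81 in Cd3 members. Klrb1b and Klrk1, the latter encoding NKG2D, stood at 677 and 610.4 CPM against 4.17 and 21.3. Ccl5 stood at 1388 CPM against 95.5, Xcl1 at 309 against 1.39, Nkg7 at 477 against 27.4 and Ifng at 159 (19 UMIs in 4 cells) against 0.464 (1 UMI). The 1 cell of hashtag 6 held 13 of the Ifng UMIs and 39 of those of Rora, and without it Ifng stood at 54.1 CPM (6 UMIs in 3 cells). The low level of Ccl5 and the uncalled Tbx21 over all members thus joined parts that differed. Tbx21 stood at 192 CPM (122 to 289) in NK receptor members and 9.27 (5.66 to 14.3) in Cd3 members.

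**Figure D5:**
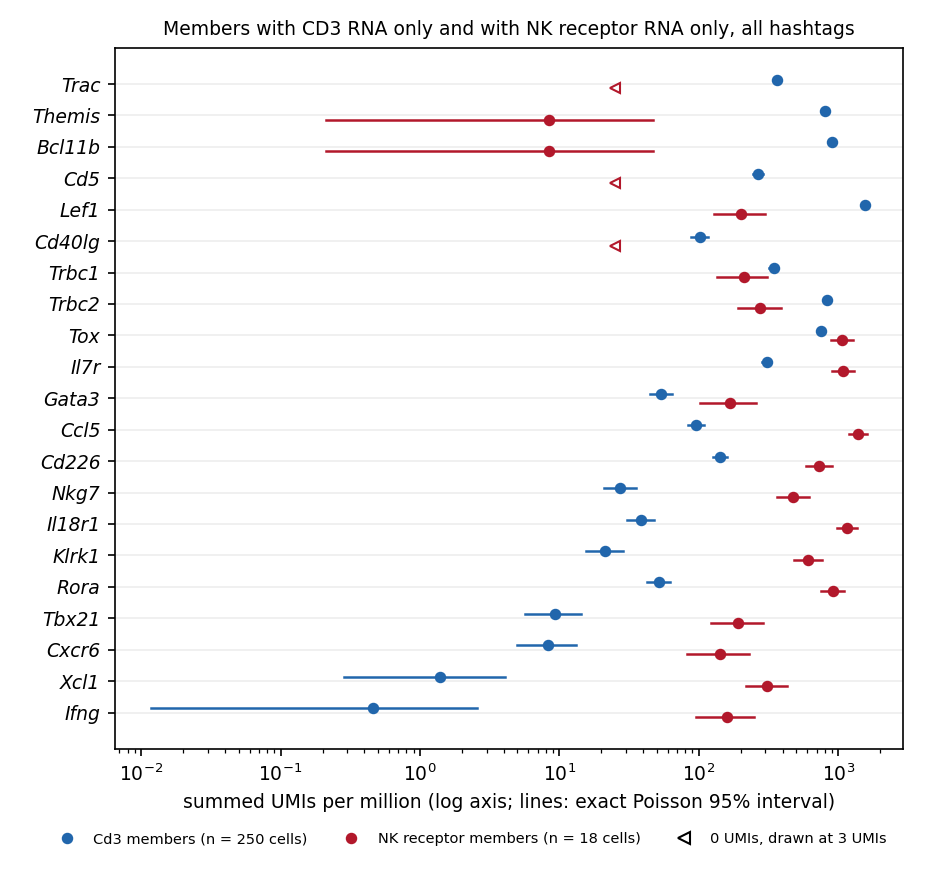
Summed level in CPM (x axis, log scale) of 21 genes (y axis) in 250 Cd3 members (blue) and 18 NK receptor members (red) over all hashtags; lines are exact Poisson 95% intervals, and open triangles mark genes without a UMI, drawn at 3 UMIs. Trac is at 364 CPM in Cd3 members and without a UMI in NK receptor members, and Il18r1 is at 38.5 against 1162 CPM.

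These 18 cells also carried genes that NK cells share with innate lymphoid cells. Eomes had 2 UMIs in 2 cells and Prf1 1 UMI. The cytotoxic list summed to 1706 CPM against 632 in Cd3 members, of which Srgn alone was 636 and 421.5 CPM. Ctsw stood at 309 CPM in the NK receptor members. Gzma had 5 UMIs in 2 of these 18 cells, Gzmb 1 UMI, and Gzmc, Gzmk and Gzmm none. Il7r stood at 1087 CPM (908 to 1291), Rora at 911 (631 without the cell of hashtag 6), Gata3 at 167, Cxcr6 at 142 and Arg1 at 92.0 CPM, genes that innate lymphoid cells also express. Kit stood at 242.5 CPM (29 UMIs in 6 cells, 17 of them in 1 cell). Il23r stood at 117 CPM (14 UMIs in 3 cells, 6 of them in the cell of hashtag 6). Il5, Il13, Il17a, Il22, Areg and Il17rb had no UMI in the NK receptor members. The innate lymphoid cell list summed to 1555 CPM in NK receptor members and 124 CPM in Cd3 members, and the NK receptor list to 5887 and 771 CPM. They are called by their receptors here, since these values hold genes of both kinds of cell. The 4 members with both CD3 and NK receptor UMIs, 2 from hashtag 2 and 2 from hashtag 5, had a median of 17271 UMIs, Ccl5 at 2141 CPM and Tox at 2459 CPM, and 1 of them held all 33 of their Cenpf UMIs. The 4 members with Il2rb alone had exactly 4 gate UMIs each and 3 came from hashtag 6. Their innate lymphoid list summed to 3074 CPM, and 1 cell with 17 Kit UMIs held the 33 Il22 UMIs of all members. They had no CD3, Ncr1 or Klrb1c UMI, Trac was at 0 and Trbc2 had UMIs in 2 of them, so the label T and NK cell-like did not hold for them beyond Il2rb.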

How the data were processed

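Single-cell RNA and hashtag libraries were made from the same droplets with the Chromium 3' v3 kit, per the labels' protocols. The authors deposited raw UMI counts per gene and barcode, made with Cell Ranger 8.0.1 on mm10 per the submitters' processing notes, and a table of hashtag calls with a probability as a fraction between 0 and 1, which was used only to check members (lowest 0.922). The sources used here do not say whether introns or strand were counted. Of the 18 columns of the table of calls, 15 were not used. The matrix held 3247803 barcodes and the table of calls 27679, of which 19239 had a single hashtag, none listed more than once.

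Counts were summed per hashtag and tested with edgeR 4.0.16 (quasi-likelihood, TMM, filterByExpr, hashtag as block, Benjamini-Hochberg adjustment over all genes tested) in R 4.3.3. The block rests on the labels: both sums of a hashtag come from 1 biological replicate. The 10 genes of the gate were kept out of tests and lists. The script was tested on simulated counts. DESeq2 1.42.0, other scalings, filters, gates and each hashtag left out were tried. The second planned test, of NK receptor against Cd3 members, had too few hashtags and was not run. Named genes were the gate genes, 29 chosen genes, at most 3 called genes with the largest change per list, and the 5 highest and 5 lowest outside the 19 lists; other genes named were chosen after their values were seen. The members and lists were chosen with earlier results of these data known. Thinned shares left out 699 other barcodes and no member. Of 32285 Ensembl IDs, 32158 were in GENCODE M21. Some list members are not reported here by name.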

Additional observations from a re-analysis of the deposited data

Results flagged for a closer look

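Barcodes that the deposited table did not give to 1 hashtag entered no comparison, yet some reached the same gate. Of 4231 barcodes called multiplets that passed the filters, 137 were in the gate (3.24%, exact 95% interval 2.73 to 3.82), with a median of 16726 UMIs and a median MHC class II share of 1.31%. Of 1401 unassigned barcodes, 28 were in the gate (2.00%, 1.33 to 2.88), with a median of 11544 UMIs and a class II share of 0.346%. Of 716 blank barcodes, 0 were in the gate, which allows up to 0.419% by the limit of 3 counts that a count of 0 leaves. The share among barcodes with a single hashtag was 1.78%.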

How the results depend on the processing

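The members of hashtag 2 were 37 cells and the NK receptor members 18, so low genes in them rest on few UMIs, and with 3 pairs the spread between replicates is weakly known. The counts of 2231 genes higher and 3131 lower became 1334 higher with sums of at least 5 cells, 2064 lower under DESeq2 (1659 higher), and 1341 higher and 1720 lower with as many other barcodes as members, where fewer genes (8262) were tested. Leaving out 1 hashtag gave 1502 to 2278 higher and 2108 to 2964 lower. Without hashtag 5 there were 1502 higher and 2108 lower. With no replicate block 2435 were higher and 3202 lower, and the block rests on the labels. The other settings (RLE scaling, no filter on low counts, a gate of 3 or 6 UMIs, members low in MHC class II, at most 5% mitochondrial UMIs, a higher minimum of genes, other barcodes without gate UMIs, Cd3 members only) stayed within 1.5 times of both counts. With the Cd3 members alone, a setting added with the equal number of barcodes after seeing the data, the log2 fold change of Tbx21 turned to -1.10 (adjusted p = 0.00808) and the log2 fold change of Arg1 to -0.42 (adjusted p = 0.789); in that setting the 18 NK receptor members are left out. RLE scaling moved no call of the 80 named genes tested.

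Shares of members in hashtags 2, 4, 5, 6 and 9 were 1.21%, 1.56%, 3.34%, 0.0336% and 0.0425% after thinning to 2000 UMIs. At most 5% mitochondrial UMIs gave 3.58%, 6.42% and 11.4% in hashtags 2, 4 and 5, where fewer barcodes passed. No alternative of NK receptor against Cd3 members was run, since only 1 hashtag had enough cells of both. Without the NK receptor member of hashtag 6, a setting added after seeing the data, Ifng moved from 159 to 54.1 CPM.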
